A study of Mus musculus with 20 samples.

Results

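The nuclear-encoded genes of the respiratory chain were followed across 20 mouse breast tumors. Listed names of members were Nduf with a, b, c, s or v and then a digit, Sdha to Sdhd, Uqcr, Cox4 to Cox8 or Atp5. This pattern does not take in Ndufab1, which is treated apart below. Members also had to reach a mean level of 5 CPM, a count scaled to library size, and pseudogene names were left out. Of the 43346 genes of the count table, 84 carried such a name and 76 were members, namely 36 of complex I, 4 of complex II, 8 of complex III, 11 of complex IV and 17 of complex V. The level threshold was the only measured value in the choice. Just inside it was Atp5s at 6.33 CPM, and just outside were Cox7a1 at 4.03 CPM and Ndufa4l2 at 2.32 CPM. The other 6 names outside it, Cox6b2, Cox6a2, Cox4i2, Cox8b, Cox8c and Cox7b2, had means of at most 0.898 CPM.

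The respiratory chain sits in the inner mitochondrial membrane. Complex I (NADH dehydrogenase) and complex II (succinate dehydrogenase, which is also an enzyme of the citric acid cycle) pass electrons to ubiquinone, complex III (ubiquinol-cytochrome c reductase) passes them on to cytochrome c, complex IV (cytochrome c oxidase) hands them to oxygen, and complex V (ATP synthase) uses the resulting proton gradient to make ATP. Complexes I, III, IV and V each combine subunits encoded in the nucleus with others encoded in mitochondrial DNA, whereas every subunit of complex II is nuclear. Several subunits of complex IV exist as isoforms that differ between muscle and other tissues.

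Each library came from a late-stage tumor of a female [BALB/c-neuT x FVB/J] F1 mouse no older than 20 weeks, and every mouse carried the neuT transgene, an activated rat Her2/neu oncogene driven in mammary epithelium by a mouse mammary tumor virus promoter. The sample titles separated 9 tumors marked Lo from 11 marked Hi without saying what the marks stood for, and tumors are named here by mark and number. Small frozen tumor pieces were used whole, so the RNA held stroma and infiltrating cells as well as tumor cells, and fewer cells of a type and less RNA per cell cannot be told apart. No normal mammary tissue was among the samples.

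Total counts ran from 38765682 to 65465755 per tumor (median 49881778.5). Genes at the ribosomal RNA locus took between 6.29% and 27.7% of them, the most in Lo_6. All 10 epithelial markers were present, with a summed level of 3028 to 4727 CPM per tumor, against 155 to 253 CPM for 10 leukocyte markers. The 9 skeletal muscle markers summed to between 6.60 and 1057 CPM (median 11.5), and 8 adipocyte markers to between 6.78 and 73.0 CPM. The 13 mRNAs encoded by mitochondrial DNA were listed at 0 in all 20 tumors, so that the mitochondrial partners of these subunits were not analysed here. The counts of members were high throughout, between 184 and 64994 reads per gene and tumor.

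Levels were compared between genes as RPKM, the CPM divided by the length in kilobases, first with the length listed beside each gene. Complex IV had the highest median over its members at 129 RPKM, followed by complex III at 73.9, complex V at 69.7, complex II at 38.4 and complex I at 30.2. Complex I ranged widely, and its range ran from Ndufb2, an accessory subunit, at 9.15 RPKM to Ndufa4 at 302 ± 43.7 (SD, n = 20). Ndufa4 is named as a complex I gene, although its product is known to bind complex IV. In complex III the lowest was Uqcrq at 28.0 and the highest Uqcr10 at 116 ± 16.4 RPKM, both of them small subunits. In complex IV, Cox6c had 34.5 RPKM and Cox8a, a small subunit, had 339. In complex V, Atp5a1, the alpha subunit of the catalytic head, had 248, and Atp5s had 4.23. The products of Atp5s and Atp5sl (now Dmac2l and Dmac2) are not subunits of the synthase, although their names met the rule.

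The listed lengths joined all exons of a gene, as in Ndufb2 with 5628 bases, and joined lengths exceed those of single transcripts. With the length of the longest principal transcript in GENCODE M21 instead, the medians were 193 RPKM for complex IV, 129 for complex V, 120 for complex III, 52.7 for complex I and 50.1 for complex II. Complexes IV, III and V thus stood above complexes I and II on both scales, while the order within each of these sets depended on the length used. Atp5b, the beta subunit that carries the catalytic sites, then had the highest level of all members at 487 RPKM, and Cox8a still led complex IV at 336.

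**Figure D1:**
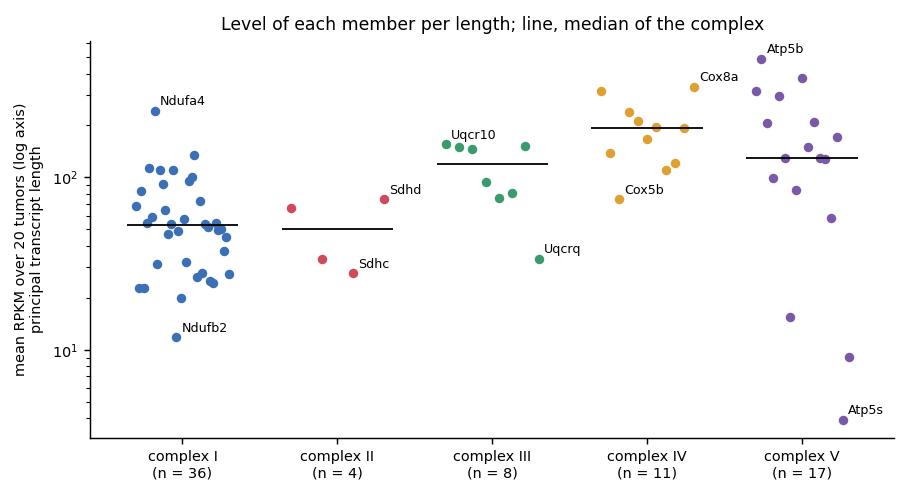
Mean RPKM of each of the 76 members over 20 tumors (log axis, principal transcript length), by complex, with the median of the complex as a line and its highest and lowest member named. Medians run from 50.1 RPKM in complex II to 193 RPKM in complex IV, and Atp5s at 3.93 RPKM is the lowest member.

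Complex II has only 4 genes, whose levels per listed length differed by up to 4.15-fold. Sdha (flavoprotein subunit) had 49.7 ± 3.48 RPKM, Sdhb (iron-sulfur subunit) 17.2 ± 2.08, Sdhc 27.1 ± 3.39 and Sdhd 71.2 ± 6.34 RPKM (SD, n = 20, listed length). The last pair anchor the enzyme in the membrane. Sdha was the steadiest member of all between tumors, at 171 CPM in the lowest Lo tumor, 190 in the median and 219 in the highest, and at 178, 193 and 210 CPM in the Hi tumors. The Hi range lay within the Lo range.

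For subunits with tissue isoforms, the widely expressed form made up nearly all of the level in these tumors. Cox4i1 had a mean of 241 CPM against 0.635 for Cox4i2, Cox6a1 had 136 against 0.658 for the muscle form Cox6a2, and Cox6b1 had 132 against 0.893 for the testis form Cox6b2. Cox7a2 had 130 CPM and Cox7a2l, a factor of supercomplex assembly, 119, against 4.04 for the muscle form Cox7a1. Cox8a had 185 CPM against 0.309 for Cox8b, and Ndufa4 had 149 against 2.33 for Ndufa4l2. The 3 genes for the identical c-subunit of the ATP synthase ring were all well expressed, with 272 CPM for Atp5g3, 72.9 for Atp5g1 and 61.8 for Atp5g2.

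Cox6a2 and Cox8b were low but not evenly so. Cox6a2 had 5.32 CPM in Hi_6, 2.07 in Lo_4, 1.59 in Hi_1 and 1.25 in Hi_9, and at most 0.634 in each of the other tumors. Cox8b was highest in the same 4 tumors, at 1.52, 1.41, 0.817 and 0.747 CPM. These tumors also had the highest levels of the muscle creatine kinase Ckm, at 124, 62.1, 39.6 and 22.6 CPM, against a median of 0.889 CPM over all tumors. Across tumors the log2 levels of Cox6a2 and Cox8b followed Ckm with r = 0.94 and r = 0.91 (n = 20, all genes of a tumor sharing 1 library). Cox7a1, whose lowest level was 1.94 CPM and whose highest was 6.35, followed Ckm less closely (r = 0.39).

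No member varied widely between tumors. The ratio of the highest to the lowest tumor was between 1.28 (Sdha) and 1.98 (Atp5l) over the members, with a median of 1.60. The SD of log2 CPM had a median of 0.186 over the members, beside 0.188 over the other genes with a mean of at least 5 CPM. The smallest SDs were those of Sdha (0.101), Sdhd (0.125) and Uqcrc1 (0.125), a core protein of complex III. The largest were those of Atp5k (0.272), Atp5l (0.254) and Ndufs6 (0.252), of which the first pair are small membrane subunits of the synthase and the last an accessory subunit of complex I.

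These modest differences were shared by nearly all members. A member's log2 CPM was set relative to its own mean over the tumors, and the level of a complex in a tumor was taken as the median of its members. Complex I then ranged from -0.24 in Lo_9 to 0.25 in Hi_7, complex III from -0.30 to 0.23 and complex IV from -0.22 to 0.30 in the same tumors. Complex V ranged from -0.22 in Lo_9 to 0.20 in Lo_2. Complex II had the narrowest range, from -0.16 in Lo_8 to 0.18 in Lo_4. The SD between tumors was 0.14 for complex I, 0.11 for complex II, 0.15 for complex III, 0.14 for complex IV and 0.13 for complex V.

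**Figure D2:**
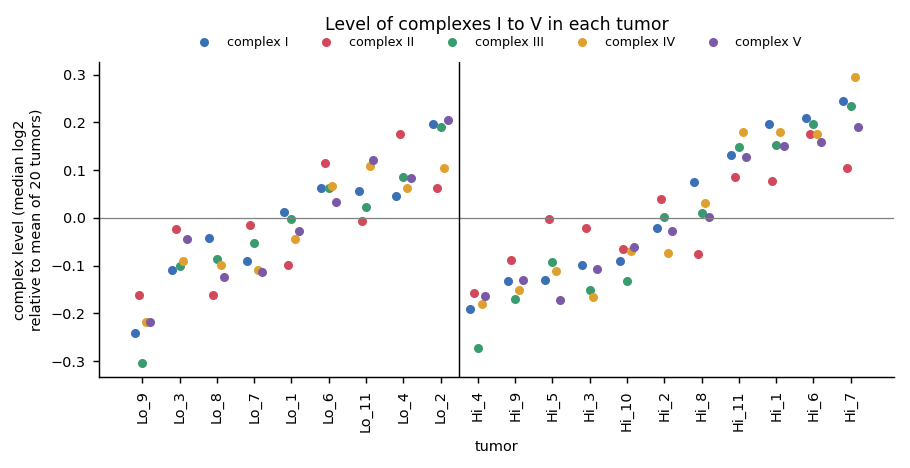
Level of each complex in each tumor, as the median over its members of log2 CPM relative to the mean of 20 tumors, with Lo tumors on the left and Hi tumors on the right, each ordered by the level over all members. Complexes I, III, IV and V lie close together in each tumor, from about -0.30 in Lo_9 to 0.30 in Hi_7, while complex II departs from them in several tumors.

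Tumors that were high for 1 complex were high for the others. Between the 6 pairs of complexes I, III, IV and V, r over the 20 tumors was 0.94 to 0.97, and it was 0.91 to 0.97 within the Lo tumors alone and 0.96 to 0.98 within the Hi tumors alone. Complex II followed the other complexes with r of 0.73 to 0.82, and its median rests on only 4 genes. Of these, Sdhb lies on Chr4 and Sdhc on Chr1, whose levels are described below. With the level of its own chromosome taken off each member, r was 0.85 to 0.90 for complex II and 0.92 to 0.97 for the 6 other pairs. With members of Chr1 and Chr4 left out instead, it was 0.77 to 0.83 for complex II. These values are descriptions, since all genes of a tumor share a library, its depth and its normalization.

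The same held gene by gene. The median r over the 2850 pairs of members was 0.57, and 95.5% of pairs were above 0, whereas the median over all pairs of genes with at least 5 CPM was 0.01. On the log2(RPKM + 1) scale, without TMM factors, the same medians were 0.635 for members and 0.24 for all genes. Pairs from the same complex (median 0.58, 855 pairs) and pairs from different complexes (median 0.57, 1995 pairs) differed little. The 6 pairs within complex II had a median of 0.40. In the Lo tumors alone the median over member pairs was 0.50, and in the Hi tumors alone 0.68.

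Against the median of the other members, 51 of the 76 members had r above 0.7. The closest were Uqcr10 (r = 0.96), Cox6b1 (r = 0.96), a subunit facing the intermembrane space, and Ndufb5 (r = 0.93), an accessory subunit of the membrane arm of complex I. Uqcr10 had 53.7, 67.0 and 84.8 CPM in the lowest, median and highest Lo tumor, and 53.5, 67.0 and 82.5 CPM in the Hi tumors. Cox6b1 had 108, 129 and 156 CPM in Lo, and 114, 128 and 161 CPM in Hi. For both genes the Lo and Hi tumors covered nearly the same range. The least close were Atp5sl (r = -0.30) and Atp5s (r = 0.06), followed by Sdhb (r = 0.31).

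**Figure D3:**
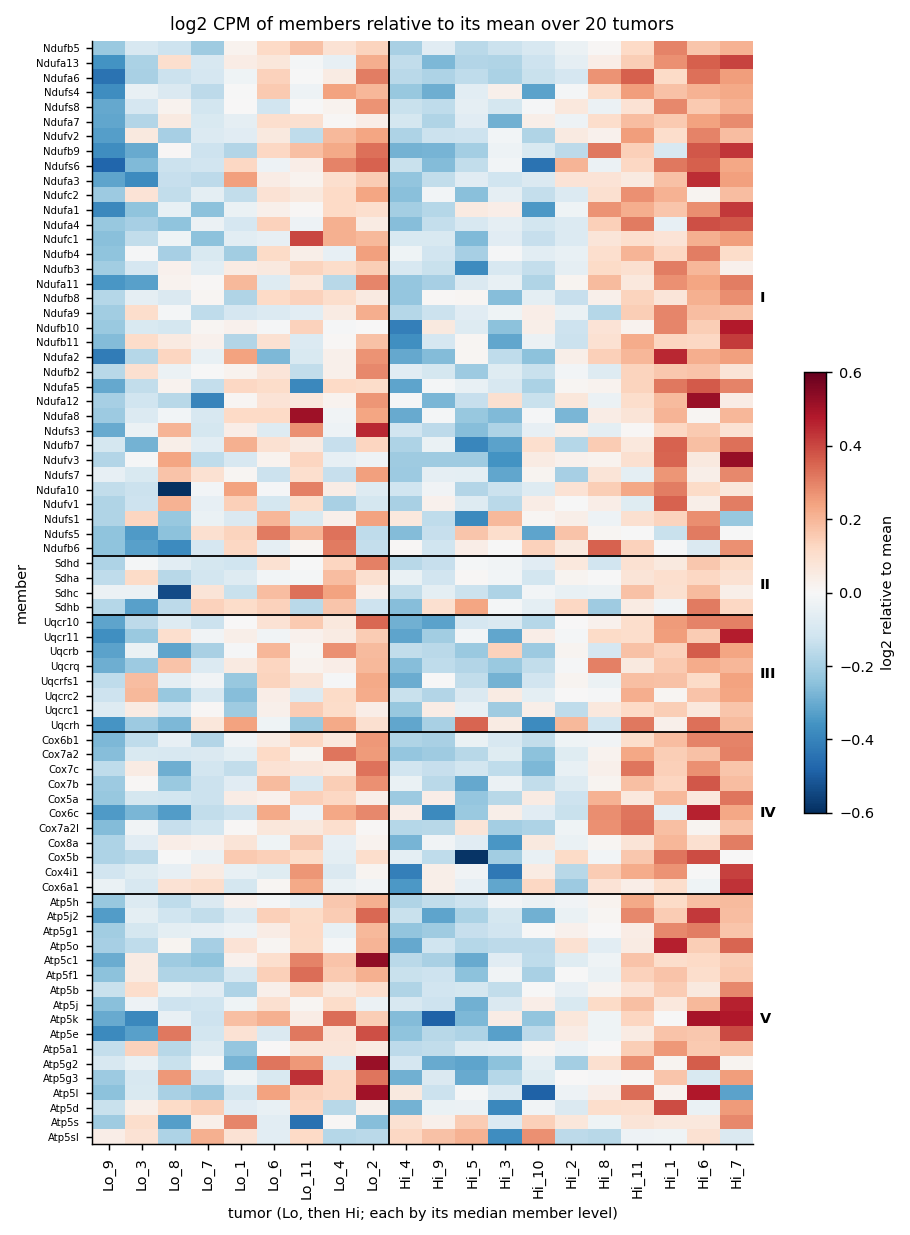
Heat map of log2 CPM of the members, 1 of complex I left out, relative to its mean over 20 tumors (rows, by complex and then by r with the other members; columns, Lo then Hi tumors by their median member level; the color scale ends at 0.6 in either direction). Most rows pass from low to high along both blocks of tumors, while Atp5s and Atp5sl at the bottom, and genes such as Ndufs1 and Sdhb, do not.

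Because members moved together, their promoters were searched for motifs of factors known to act on genes of the respiratory chain. Promoter windows (250 bases before to 50 after the gene start) were taken from RefSeq on GRCm38.p6, and 65 of the 76 members had at least 1. The other 11 had none in the table. The letters GCGCA and GCGC with 1 free base between them, the core of the motif of nuclear respiratory factor 1 (NRF1), were found on either strand in 25.4% of the 71 member windows, against 4.60% of all 32851 windows. CCGGAAG, a motif of the ETS factors that include GABP (also called NRF2), was found in 22.5% against 8.86%. AAGATGGC, a motif of YY1, was found in 16.9% against 2.75%. The other motifs searched were TCAAGGTCA of the estrogen-related receptors, found in 2.82% against 0.423%, and GGGCGG of SP1, found in 38.0% against 35.7%. Where the windows of a gene overlap they share bases, and none of the motifs overlapped another in the windows printed below.

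For each of the NRF1, ETS and YY1 motifs, the member holding it that had the highest r with the other members is shown, 5′ to 3′ on the strand of the gene, with motif matches in capitals. Atp5h encodes a stalk subunit of the ATP synthase (r = 0.92) and holds both an NRF1 and an ETS match, Cox6b1 holds an ETS match, and Atp5j2, a membrane subunit of the synthase (r = 0.91), holds a YY1 match that begins 23 bases after the gene start.
Atp5h, chr11:115419870-115420169, minus strand: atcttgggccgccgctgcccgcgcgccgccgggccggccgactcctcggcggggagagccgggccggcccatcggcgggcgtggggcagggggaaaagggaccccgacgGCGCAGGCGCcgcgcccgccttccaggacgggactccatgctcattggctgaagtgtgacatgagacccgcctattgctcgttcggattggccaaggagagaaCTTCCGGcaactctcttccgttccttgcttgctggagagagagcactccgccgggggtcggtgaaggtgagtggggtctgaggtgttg
Cox6b1, chr7:30626065-30626364, minus strand: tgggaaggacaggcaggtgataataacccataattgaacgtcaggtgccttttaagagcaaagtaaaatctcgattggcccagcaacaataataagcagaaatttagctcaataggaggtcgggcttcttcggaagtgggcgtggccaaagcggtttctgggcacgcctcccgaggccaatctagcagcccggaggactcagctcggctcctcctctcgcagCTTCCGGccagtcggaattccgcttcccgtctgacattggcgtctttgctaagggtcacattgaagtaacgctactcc
Atp5j2, chr5:145191492-145191791, minus strand: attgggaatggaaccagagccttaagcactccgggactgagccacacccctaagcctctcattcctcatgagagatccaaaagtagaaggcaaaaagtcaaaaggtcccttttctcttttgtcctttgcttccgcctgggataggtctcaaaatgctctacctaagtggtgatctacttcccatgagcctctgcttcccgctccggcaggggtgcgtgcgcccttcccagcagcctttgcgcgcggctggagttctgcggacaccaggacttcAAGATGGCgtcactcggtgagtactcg

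The motifs did not separate members by how closely they moved together. The median r with the other members was 0.79 for the 17 members with an NRF1 match and 0.79 for the 48 without, 0.74 with and 0.79 without an ETS match, and 0.81 with and 0.77 without a YY1 match. By complex, NRF1 matches were found in 7 of 32 members of complex I, 2 of 3 of complex II, 1 of 5 of complex III, 1 of 9 of complex IV and 6 of 16 of complex V. YY1 matches were found in 7 members of complex I and 4 of complex V. A match describes letters only, and binding was not measured.

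Position in the genome, which the rule did not use, marked out several of the members that departed from the rest. There were 6 members on Chr1 and 4 on Chr4. Their median r with the other members was 0.53, against 0.80 for the remaining 66 members. Of the 12 members with the lowest r, 6 were on these chromosomes. The relative expression level of a chromosome was taken as the median log2 level of its genes other than members, relative to all autosomes in the same tumor. For Chr4 it ran from -0.21 in Lo_2 to 0.38 in Hi_5, with the highest SD of any chromosome (0.14), followed by Chr1 (0.10). Copy number itself was not measured in these files.

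On Chr4 lie Sdhb, the iron-sulfur subunit of complex II, Ndufs5 and Ndufb6, accessory subunits of complex I, and Uqcrh, the hinge protein of complex III. Sdhb had 30.5, 35.0 and 42.9 CPM in the lowest, median and highest Lo tumor, and 31.9, 39.5 and 47.3 CPM in the Hi tumors. Its lowest level was in Lo_3, whose Chr4 level was -0.20, and relative to its mean it was at 0.24 in Hi_5. The Chr4 level did not go with every tumor, since Sdhb was highest in Hi_6, at 0.31, and low in Hi_4, at -0.26, where the Chr4 level was -0.004 and -0.02. Uqcrh was highest of all tumors in Hi_5, at 104 CPM, where the median over all members was -0.12. It was nearly as high in Hi_6 (103 CPM) and Hi_11 (101 CPM). There the Chr4 level was -0.004 and -0.04, and the median over all members 0.18 and 0.13. Ndufs5 was lowest in Lo_3 at 12.95 CPM and highest in Lo_4 at 20.6 CPM.

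With the Chr4 level subtracted, these genes followed the other members more closely. Against members of other chromosomes, r went from 0.29 to 0.73 for Sdhb, from 0.36 to 0.73 for Ndufs5, from 0.35 to 0.62 for Ndufb6 and from 0.52 to 0.85 for Uqcrh. The same subtraction applied to 70 members of other chromosomes moved their median r from 0.79 to 0.75, and r was higher afterwards in 27 of them. The members of other chromosomes themselves had r = -0.41 with the Chr4 level, so a part of the gain follows from the subtraction alone.

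**Figure D4:**
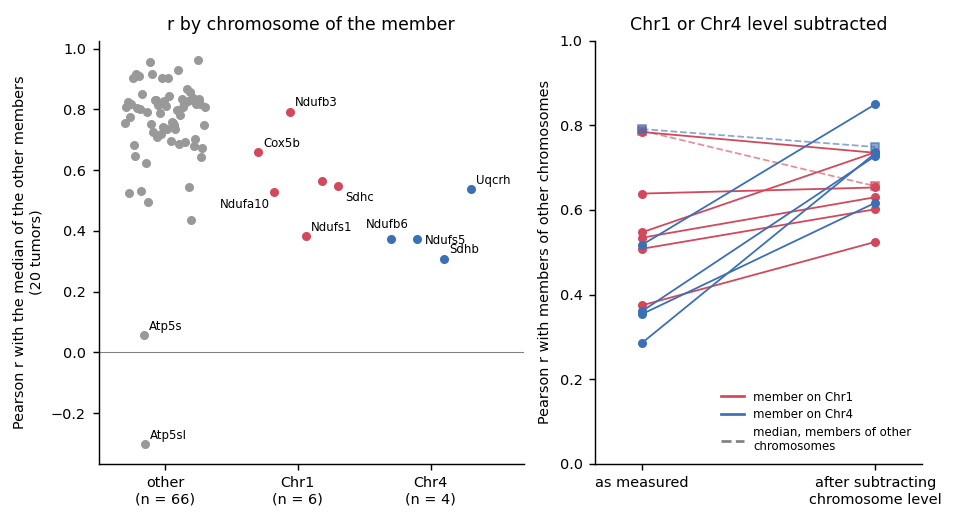
Left, Pearson r over 20 tumors of each member with the median of the other members, by chromosome. Right, r with the members of other chromosomes before and after the Chr1 or Chr4 expression level was subtracted, with the median of members on other chromosomes as dashed lines; all 4 Chr4 members gain (0.29 to 0.73 for Sdhb), as do 5 of 6 on Chr1.

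The Chr1 members lay in separate stretches of the chromosome. Cox5b (36691484-36693681), Ndufb3 (58586384-58595964) and Ndufs1 (63143596-63176833) lie in its first part on mm10, Ndufa10 lies at 92439010-92473860, and Sdhc lies near its end at 171127165-171150603. In Lo_8 the distal genes were low, with Ndufa10 at -0.65 and Sdhc at -0.54 on the log2 scale relative to their means, while Ndufb3 was at 0.03 and Cox5b close to its mean. Ndufs1, of the first part, was also low in Lo_8, at -0.23, where its neighbours had a median of -0.07. Other genes within 10 Mb had medians in Lo_8 of -0.37 around Ndufa10, -0.42 around Sdhc, and -0.05 around Cox5b. In Hi_5, by contrast, Cox5b was at -0.59, Ndufb3 at -0.38 and Ndufs1 at -0.38, each its lowest value in any tumor, and Sdhc was at -0.13. The neighbours of Ndufs1 in Hi_5 had a median of -0.19 and those of Sdhc a median of -0.10. Hi_7 had a low level along the chromosome (-0.24), and the highest median over all members of any tumor (0.23). Ndufs1 stood well below its mean there, at -0.23. Cox5b (0.004), Ndufb3 (0.03), Sdhc (0.04) and Ndufa10 (0.07) were near their means, and so below that median.

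Over the 20 tumors, r between a member and its neighbours within 10 Mb was 0.80 for Ndufs1, 0.65 for Sdhc and 0.65 for Ndufa10, but 0.36 for Cox5b and 0.21 for Ndufb3, and 0.49 to 0.61 for the 4 members on Chr4. The median was 0.20 over the 66 members outside Chr1 and Chr4. The highest such value of any member was on Chr15, where Cox6c, a complex IV subunit that ranged from 93.1 CPM in Hi_9 to 167 CPM in Hi_6, had r = 0.86.

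In a fit of all 18883 tested genes on the Chr1 level (edgeR quasi-likelihood test, slope per SD of the measure, Benjamini-Hochberg adjustment), 0.863% of genes rose with it and 0.519% fell. Ndufs1, the largest subunit of complex I, was the only member past an adjusted p of 0.05, with a log2 slope of 0.13 ± 0.03 (SE) and an adjusted p of 0.0361. It had 63.3, 72.0 and 87.6 CPM in the lowest, median and highest Lo tumor, and 56.9, 75.8 and 89.9 CPM in the Hi tumors. The call did not hold with Lo_8 and Hi_7 left out, nor without any single one of Lo_2, Lo_3, Lo_4, Lo_6, Lo_8, Hi_3, Hi_5 and Hi_11. At an unadjusted p under 0.05, 5 members had positive slopes, beside 6.65% of all genes, and 4 had negative ones, beside 6.88%. These counts turned on the same tumors, being 15 and 0 without Hi_7, 2 and 6 without Lo_8, and 20 and 1 without both. Leaving out Lo_8 alone reduced the genes called from 163 to 14 in the rising direction, so this fit rested largely on that tumor. On the Chr4 level, 4.02% of all genes rose and 1.53% fell, and no member passed. At an unadjusted p under 0.05, 3 members had positive slopes, all of them on Chr4 (9.60% of all genes), and 21 had negative slopes (7.63% of all genes), the latter 12 without Hi_5, 13 without Lo_2 or Hi_1 and 11 without Hi_5 and Hi_2. Of the 1165 tested genes on Chr4 itself, 388 rose. The hypoxia and glycolysis genes described below also fell with the Chr4 level, 11 of 15 of them.

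The Lo and Hi tumors did not differ in the respiratory chain genes at this number of tumors. Complex I had a mean level of -0.01 ± 0.13 (SD, n = 9) in Lo and 0.02 ± 0.16 (SD, n = 11) in Hi, and the other complexes differed by between 0.01 and 0.03 in means with overlapping ranges. In the edgeR fit over all genes, 0 of 76 members and 0% of the genes tested passed an adjusted p of 0.05. At an unadjusted p under 0.05 there were 1045 genes (3.50% of those tested higher in Lo and 2.04% lower) and 0 members. DESeq2 called 1 gene, no member. The median log2 difference of the members was -0.02, and single members ranged from -0.16 (Atp5s) to 0.13 (Atp5g3). The members with the smallest p were Ndufb6, at -0.15 ± 0.08 (SE), and Atp5s, at -0.16 ± 0.09. Assembly factors (39 tested), citric acid cycle enzymes (12), regulators (15), mitochondrial ribosomal proteins (77) and cytosolic ribosomal proteins (95) had no call either.

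The clearest relation of the members was with RNAs known to stay in the nucleus. A score was made from Malat1, Neat1, Kcnq1ot1, Meg3, Mirg and Rian as the mean of their standardized log2 levels. Each RNA counted equally, although only 5 of the 6 had a mean of at least 1 CPM. Malat1, the most abundant, ranged from 1047 CPM in Hi_7 to 4329 CPM in Hi_4. In the fit over all genes, 18 of 76 members fell with this score and none rose, beside 3.24% of all genes falling and 6.38% rising. The slope was below 0 for 75 of 76 members, Atp5sl being the exception, beside 9966 of the 18883 genes tested. At an unadjusted p under 0.05, 48 members had negative slopes (11.9% of all genes). Since members moved together, their shared direction does not amount to 76 separate observations. The median slope of the members was -0.09 log2 units per SD, against -0.01 over all genes.

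By complex, 10 of 36 members of complex I fell, 1 of 4 of complex II, 0 of 8 of complex III, 4 of 11 of complex IV and 3 of 17 of complex V. The median slopes were -0.09, -0.06, -0.10, -0.10 and -0.09, so that complex III, without a call, had a slope as steep as the others. The 3 smallest p were those of Cox7a2l, at -0.13 ± 0.02 (SE; adjusted p = 0.00402), Atp5j, a stalk subunit of the synthase, at -0.12 ± 0.03 (adjusted p = 0.0193), and Ndufa4, at -0.13 ± 0.04 (adjusted p = 0.0249). Cox7a2l had 98.5, 119 and 127 CPM in the lowest, median and highest Lo tumor, and 103, 120 and 148 CPM in Hi. Atp5j had 141, 164 and 181 CPM in Lo, and 138, 172 and 231 CPM in Hi. Ndufa4 had 125, 144 and 171 CPM in Lo, and 123, 142 and 192 CPM in Hi. Of the other lists, 8 of 77 mitochondrial ribosomal proteins, 14 of 95 cytosolic ribosomal proteins, 2 of 12 citric acid cycle enzymes (Suclg1 and Suclg2, subunits of succinyl-CoA ligase) and 1 of 39 assembly factors (Coa3) fell with the score. Of 10 epithelial markers 3 fell as well, Cldn4, Krt8 and Epcam, and of 15 hypoxia and glycolysis genes 1, Egln3.

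How many members were called depended on single tumors. Without Hi_7 and Hi_11, the tumors farthest from the median of the score, 1 member was called and 20 had an unadjusted p under 0.05, and leaving out 1 tumor at a time gave between 2 calls (without Hi_4 or without Hi_11) and 34 (without Hi_6), with 3 without Lo_9 and 5 without Lo_4 or Hi_7. The direction was kept, with at least 74 members below 0 each time. With only Malat1, Neat1 and Kcnq1ot1 in the score, chosen after the data were seen, 44 members fell. Other properties of the libraries moved with the members too. The median member level had r = -0.65 with the score, r = -0.78 with the log2 level of Malat1 and r = -0.57 with the total count of the tumor (n = 20 each), and their part in the result was not tested.

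**Figure D5:**
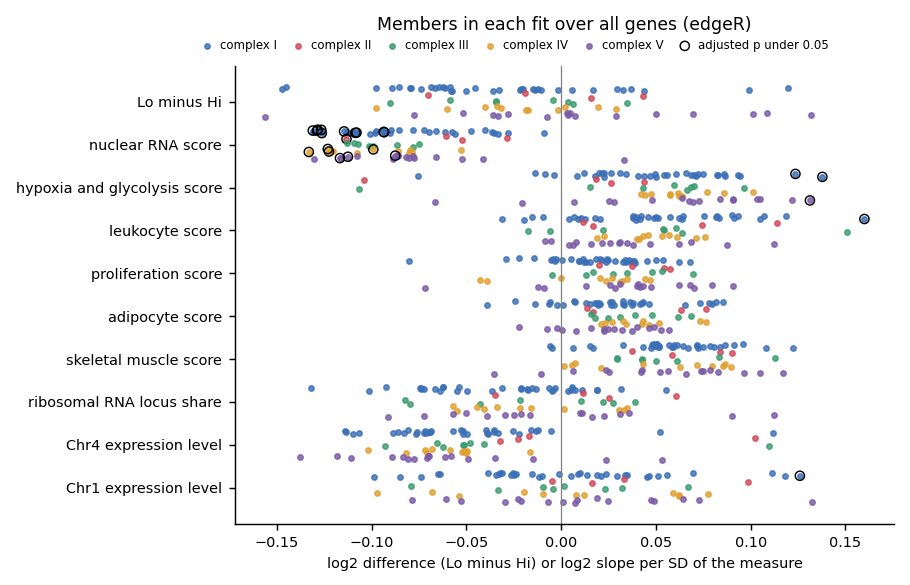
Log2 difference (Lo minus Hi) or log2 slope per SD of each measure for the 76 members, colored by complex, from edgeR fits over all genes; open circles mark an adjusted p under 0.05. The 18 circled members of the nuclear RNA score lie below 0, while Lo against Hi is spread on both sides of 0 with no circle.

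Among all genes, r with the member level differed by listed gene length. The listed length had a median of 1475 bases over the members and 3861.5 over the other genes with at least 5 CPM. Over those other genes, the median r with the member level was 0.44 for the 681 genes of up to 1000 bases, 0.35 up to 2000 bases, 0.18 up to 4000, -0.01 up to 8000 and -0.16 above that. Members stood higher at each of these lengths, with a median of 0.81 for 24 members of up to 1000 bases, 0.78 for 27 up to 2000, 0.68 for 17 up to 4000 and 0.81 for 7 up to 8000, and 0.38 for the 1 member above that. The nearest genes outside the members, named after their values were seen, were Gm9385 (r = 0.93), the prefoldin subunits Pfdn1 (r = 0.93) and Pfdn5 (r = 0.91), and the ribosomal protein genes Rpl32 (r = 0.92) and Rps29 (r = 0.92). At the other end stood Dleu2 (r = -0.89), Smg1 (r = -0.82), a kinase of nonsense-mediated decay, and Nktr (r = -0.83).

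Other mitochondrial gene groups followed the members to different degrees. The median r with the member level was 0.67 over 77 mitochondrial ribosomal proteins, 0.61 over the 12 citric acid cycle enzymes, 0.44 over 37 assembly factors with at least 5 CPM, and 0.74 over 90 cytosolic ribosomal proteins, against 0.10 over all other genes. Among the citric acid cycle enzymes Suclg1 (r = 0.87) and Mdh2 (r = 0.80) were closest and Ogdh (r = 0.28) the least close. Among assembly factors, Coa3 (r = 0.89), for complex IV, and Uqcc2 (r = 0.87), for complex III, were closest, and Cox20 (r = -0.32) was lowest. Cyc1, the cytochrome c1 of complex III, had r = 0.71 and cytochrome c (Cycs) r = 0.41, while Ndufab1, which also serves fatty acid synthesis in mitochondria, had r = -0.19 and an SD of log2 CPM of 0.0805.

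The regulators of these genes did not move with them as a group. Over 14 regulators with at least 5 CPM the median r with the member level was 0.003, with 7 above 0. Tfam, which packages mitochondrial DNA and takes part in its transcription, had the highest value (r = 0.62). Nrf1 was at r = 0.08, Gabpa at r = 0.13, Yy1 at r = 0.19, Esrra at r = 0.04 and Ppargc1a, the coactivator of mitochondrial biogenesis, at r = -0.03, and Ppargc1a stood between 15.7 and 23.9 CPM. Polrmt, the mitochondrial RNA polymerase, had r = -0.46 and stood at 59.9 CPM in Hi_4 against 19.1 to 27.4 CPM in the other tumors. Esrrg and Tfb2m, both of them rising with the Chr1 level, were the regulators called in any of these fits besides Pprc1, which rose with the nuclear RNA score. The fit on the Chr1 level rested largely on Lo_8, and in it 142 of the 1353 tested genes of Chr1 itself rose. Whether the calls of Esrrg and Tfb2m follow from gene position was not tested.

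Of the measures of tumor state, the score of 15 hypoxia and glycolysis genes had the most members called. It also called more genes of all kinds, with 482 rising against 229 for the leukocyte score. With the hypoxia and glycolysis score rose 3 of 76 members, beside 2.55% of all genes rising and 2.47% falling. They were Ndufv3, at 0.14 ± 0.04 log2 units per SD (adjusted p = 0.0313), and Ndufa8, at 0.12 ± 0.04 (adjusted p = 0.0498), both of complex I, and Atp5g3, at 0.13 ± 0.04 (adjusted p = 0.0339). Ndufv3 had 38.1, 42.1 and 50.7 CPM in the lowest, median and highest Lo tumor, and 33.5, 43.7 and 61.8 CPM in Hi. Atp5g3 had 232, 264 and 365 CPM in Lo, and 218, 256 and 320 CPM in Hi. Ndufa8 had 47.6, 54.6 and 78.6 CPM in Lo, and 44.8, 55.1 and 63.6 CPM in Hi. The slope was above 0 for 68 of 76 members, beside 9641 of the 18883 genes tested. At an unadjusted p under 0.05, 21 members had positive slopes (9.93% of all genes) and 2 had negative ones (9.11%). The former count was 5 without Hi_5 and Hi_3, 11 without Hi_3, 14 without Hi_5 and 36 without Hi_6. Sdhb, a Chr4 gene, was at -0.10 ± 0.03 (adjusted p = 0.0806), and 11 of the 15 genes of the score fell with the Chr4 level. The calls rested on few tumors, since none was left without Hi_5 and Hi_3, and none without Hi_3, Hi_5 or Lo_7 alone. Of 39 assembly factors 1 fell with the score, Acad9 of complex I, a share near the 2.47% of all genes falling. Of 77 mitochondrial ribosomal proteins 2 fell, and of 95 cytosolic ribosomal proteins 1.

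With the leukocyte score 1 member rose, beside 1.21% of all genes rising and 0.524% falling. At an unadjusted p under 0.05 there were 8 members with positive slopes, beside 9.92% of all genes, and 0 with negative ones, beside 7.83%. The called member was Ndufs5 of Chr4, at 0.16 ± 0.04 (adjusted p = 0.0317), with 12.95, 17.6 and 20.6 CPM in the lowest, median and highest Lo tumor and 13.2, 16.4 and 20.4 CPM in Hi. It was not called without Lo_3 and Lo_1. The next smallest p were those of Uqcrh and Sdhb, at 0.15 ± 0.04 and 0.11 ± 0.03, also Chr4 genes, and neither passed. Of the leukocyte markers themselves, 3 of 10 rose with the Chr4 level. The score was not remade without any markers on Chr4, so leukocyte content and the Chr4 level were not told apart here.

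No member was called with the proliferation score, beside 0.863% of all genes rising, or with the adipocyte score, beside 0.0900% of all genes rising. At an unadjusted p under 0.05 there was 1 member with a positive slope for proliferation, beside 5.0% of all genes (4.01% negative), and there were 2 for the adipocyte score, beside 4.10% (3.51% negative). No member was called either with the share of counts at the ribosomal RNA locus, beside 0.101% of all genes rising and 0.0212% falling, or with the skeletal muscle score, beside 0.778% rising and 0.0106% falling. For the ribosomal RNA share, 1 member had a positive and 4 a negative slope at an unadjusted p under 0.05, beside 5.89% and 4.93% of all genes. At an unadjusted p under 0.05, 15 members had positive slopes on the muscle score (4.77% of all genes, and 1.93% negative). The slope was above 0 for 72 of 76 members, beside 9001 of the 18883 genes tested. Without Hi_6 and Lo_4, the tumors farthest from the median of this score, no member had an unadjusted p under 0.05. DESeq2 called no member in any of these 4 fits.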

How the data were processed

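The files hold 1 table of read counts per gene for 20 tumors, deposited by the authors with gene names, positions on mm10 and gene lengths. Per the labels and the study's methods, RNA was extracted with miRNeasy, libraries were made with a TruSeq mRNA kit, and trimmed paired reads were aligned with TopHat. The processing notes name TopHat2 2.0.12 and featureCounts 1.4.4 and list both mm10 and hg19. Strand setting and treatment of multi-mapped reads are not given in the sources used here, so 17 members that overlap another gene with at least 5 CPM, and members with near-identical pseudogenes, carry that uncertainty.

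Counts were used as deposited. In R 4.3.3, edgeR 4.0.16 (filterByExpr, TMM, quasi-likelihood test) was fitted over all genes with Benjamini-Hochberg adjustment at 0.05, for Lo against Hi or for the slope on each measure scaled to an SD of 1. Scores are means of standardized log2 CPM (prior count 2). The fit on mitochondrial mRNA could not be run, since these mRNAs are listed at 0. The scripts were tested on simulated data with 200 planted genes. For Lo against Hi at a log2 difference of 1, 165 were recovered (4 false calls, 18737 genes). For a slope of 0.5, 151 were recovered (3 false calls, 18883 genes). Changes as small as those of the members, which ran from -0.16 to 0.13 for Lo minus Hi, were not planted. Tumors came from separate mice.

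The members and gene lists were chosen with earlier results of these data known. Named are all Sdh genes, the highest and lowest member of each complex, the 3 largest and smallest SDs, isoform sets, the 3 highest and lowest r, Chr1 and Chr4 members and up to 3 members per direction in each fit. The fits on skeletal muscle, Chr1 and Chr4, the neighbours within 10 Mb, motif letters and GENCODE M21 lengths were added after the data were seen. Numbers shared by Lo and Hi tumors in 9 pairs are not explained in the titles, and the main fits did not use them as pairs. The values of 1 member are not reported here.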

Additional observations from a re-analysis of the deposited data

Results flagged for a closer look

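In the group of 9 Lo tumors, 47 values were checked for a single tumor far from the rest, and 3 stood apart by Dixon's criterion, where chance gives about 2.35. Cox6a2 and Cox8b, the muscle isoforms, were far higher in Lo_4 than in the other Lo tumors, at 2.07 CPM (next 0.634) and 1.41 CPM (next 0.346). Ckm was 62.1 CPM in the same tumor. Cox4i1 was highest in Lo_11 at 287 CPM (next 247). Their causes were not tested.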

How the results depend on the processing

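The SDs of the 5 complex levels and the median pairwise r of members, within and between complexes, kept their direction and moved little with log2(RPKM + 1), RLE size factors, a mean of at least 20 CPM, a prior count of 0.5, a mean in place of the median, Spearman's rho or 2 tumors fewer; the median pairwise r lay between 0.55 and 0.64 over all members and between 0.54 and 0.66 within complexes. The median RPKM of members went from 52.1 to 78.7 with principal transcript lengths. For Lo against Hi, DESeq2 and a filter of at least 1 count each called 1 gene, and no member was called under any setting. The replicate block called 0 genes and 0 members. Deviations of same-numbered tumors had r of -0.41 to 0.33, over 0.1 in 2 of 9 pairs. What a shared number stands for is not given, and these values cannot settle whether it marks a pairing.

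For the hypoxia and glycolysis score, members rising went from 3 to 1 with genes of at least 1 count, to 1 with Lo or Hi as a term, and to 0 without the 2 farthest tumors; leaving out single tumors gave 0 to 4. For the leukocyte score DESeq2 called 3 and the fit without the 2 farthest tumors 0. For the nuclear RNA score, members falling went from 18 to 8 with genes of at least 1 count, to 1 without the 2 farthest tumors, to 9 without the tumor with the highest share at the ribosomal RNA locus, and to 44 with 3 RNAs in the score; single tumors gave 2 to 34. Members falling with the Chr4 level went from 0 to 1 with DESeq2 and lay between 0 and 4 over single tumors (4 without Lo_3). Members rising with the Chr1 level went from 1 to 2 with DESeq2 and 0 without the 2 farthest tumors, and lay between 0 and 1 over single tumors. Apart from the settings that use fewer genes or tumors, the cause was not tested. The fits on mitochondrial mRNA and their alternatives were not run.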
